A study of Drosophila melanogaster with 24 samples.

Results

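Female genital discs of wandering Drosophila melanogaster larvae (stage L3) were compared with male genital discs of the same stage over all 13647 probe sets that carry 1 gene symbol, which stand for 11982 genes. The comparison used 8 of the series' 24 Affymetrix arrays, 4 from female and 4 from male L3 discs, each array a labelled biological replicate. The other 16 arrays, 4 per sex at a prepupal (P6) and a pupal (P20) stage, served to follow the L3 differences. P6 discs were taken at the peak of the air bubble in the puparium, around 6 h after puparium formation. P20 discs were taken when GFP first showed in the eye disc, around 20 h after puparium formation. All 6 groups carried the genotype esgGAL4.B, UAS-GFP.nls/CyO, in which the escargot driver puts nuclear GFP in imaginal discs over a balancer chromosome, were reared at 25 C, and received no treatment. L3 animals were sexed by the size of their gonads. RNA came from whole dissected discs, 20 ng per labelling, and the labels do not say how many animals a sample holds.

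The genital disc is a single midline disc built from the primordia of several abdominal segments. A female genital, a male genital and an anal primordium lie side by side in the discs of both sexes. In each sex the genital primordium of that sex grows into genitalia and ducts, the other stays small, and the anal primordium develops in both. Which one grows is set by the sex determination cascade: the splicing regulator Sex-lethal is active in females and allows functional transformer, and Transformer directs doublesex (dsx) transcripts towards the female form, while males make the male form by default. The female and male Doublesex proteins then act on patterning and signalling genes, so the comparison asks which genes already differ between the sexes before metamorphosis starts.

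Values are the log2 RMA (robust multi-array average) summaries that the authors deposited, and a difference of 1 log2 unit is 2-fold. They ranged from 2.04 to 14.33 on the L3 arrays, with array medians between 5.04 and 5.15. No detection calls came with them, so a value of 3 to 5, near the low end, is a low reading and not evidence that a gene is silent. Array values of a gene are listed from replicate 1 to replicate 4 of each sex, SDs are over 4 arrays, and levels of different genes are not compared. In whole discs, fewer cells of a type and less RNA per cell cannot be told apart.

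Replicates varied more at L3 than later. The median SD of a probe set was 0.245 log2 units in female and 0.247 in male L3 discs, against 0.146 to 0.194 in the 4 later groups. The female and the male array numbered 1 stood apart together. Each had the lowest mean correlation with its own group. It was 0.977 against 0.980 to 0.983 for the other female arrays, and 0.971 against 0.978 to 0.981 for the other male arrays. Deviations of the arrays numbered 1 from their group means correlated at 0.69, against 0.36, 0.32 and 0.08 for the pairs numbered 2, 3 and 4. Without these 2 arrays 39 probe sets passed the threshold, of which 33 were among the 46 that passed with all 8. Calls that ended without them are named beside the genes below. With the replicate number as a block in the fit, 44 probe sets passed, of which 34 were among the 46. The 12 calls that the block ended are named in the closing section.

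**Figure D1:**
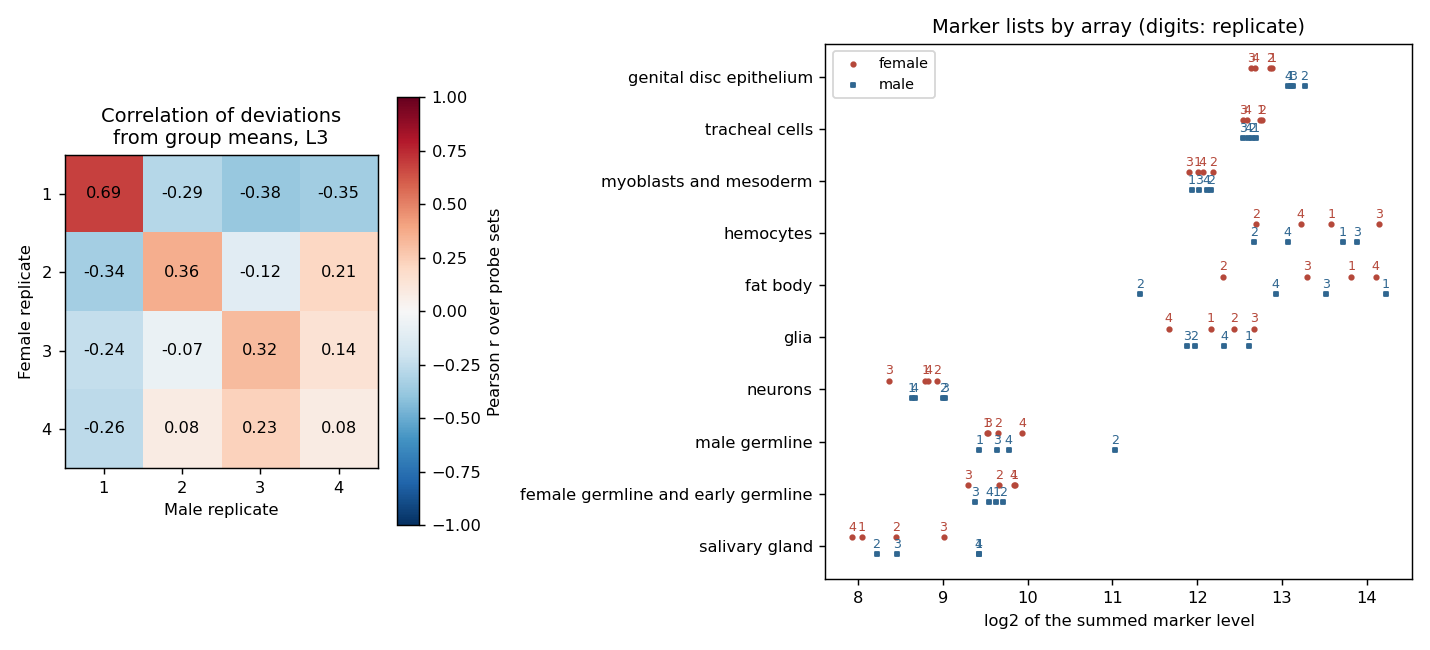
Left, Pearson correlation over 13647 probe sets of each female array's deviation from the female mean with each male array's deviation from the male mean at L3, by replicate number; the pair numbered 1 has the highest value, 0.69. Right, log2 of the summed linear level of each marker list on each L3 array. Female arrays are circles above male arrays as squares, with the replicate number beside each point. The fat body and hemocyte sums spread widely within both sexes. Those of the genital disc epithelium, a list that includes dsx, do not overlap between the sexes.

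The dissected tissue carried genital disc markers in both sexes. Of 7 measured disc markers, cad, the caudal homeobox gene of the posterior body, averaged 11.26 ± 0.13 in female and 11.27 ± 0.05 in male discs, and esg, whose driver marked the discs, 9.69 ± 0.21 and 9.96 ± 0.16. The posterior-compartment genes en and hh averaged 9.66 ± 0.12 and 8.46 ± 0.09 in female discs, against 10.02 ± 0.01 and 8.75 ± 0.21 in male discs. The summed level of this list was 12.63 to 12.88 log2 units on female arrays, below the 13.07 to 13.27 on male arrays. Besides Dll and dac, the sum includes dsx, on probe set 1640799_at, at 10.22 ± 0.31 in female and 11.14 ± 0.13 in male discs. It is thus no measure of the amount of disc epithelium apart from dsx. Yp1, a yolk protein gene of adult fat body and ovary, stood at 4.43 ± 0.52 in female and 4.39 ± 0.20 in male discs. The other yolk protein genes, also at low readings, leaned towards females without passing: Yp3 by 0.65 ± 0.19 (adjusted p = 0.609), with all female values above the male ones, and Yp2 by 0.75 ± 0.25 (adjusted p = 0.834), with overlap.

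At the threshold of a Benjamini-Hochberg adjusted p under 0.05 in limma, 46 of 13647 probe sets (0.337%) differed between the sexes, 14 higher (0.103%) and 32 lower (0.234%) in female discs. They belong to 44 of 11982 genes (0.367%), 13 higher (0.108%) and 31 lower (0.259%). The difference was 2-fold or more for 12 of the higher (0.0879% of all probe sets) and 30 of the lower ones (0.22%). For all 46 the 4 female values lay wholly beyond the 4 male values, as they did for 429 probe sets (3.14%) overall. Over all probe sets the median difference was 0.01 log2 units, with 7289 above 0 and 6358 below. The number called depended on single arrays: it was 28 and 30 without female replicates 2 and 4, and 30 and 27 without male replicates 3 and 4. The plot of difference against level shows how far the called probe sets lay from the rest.

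**Figure D2:**
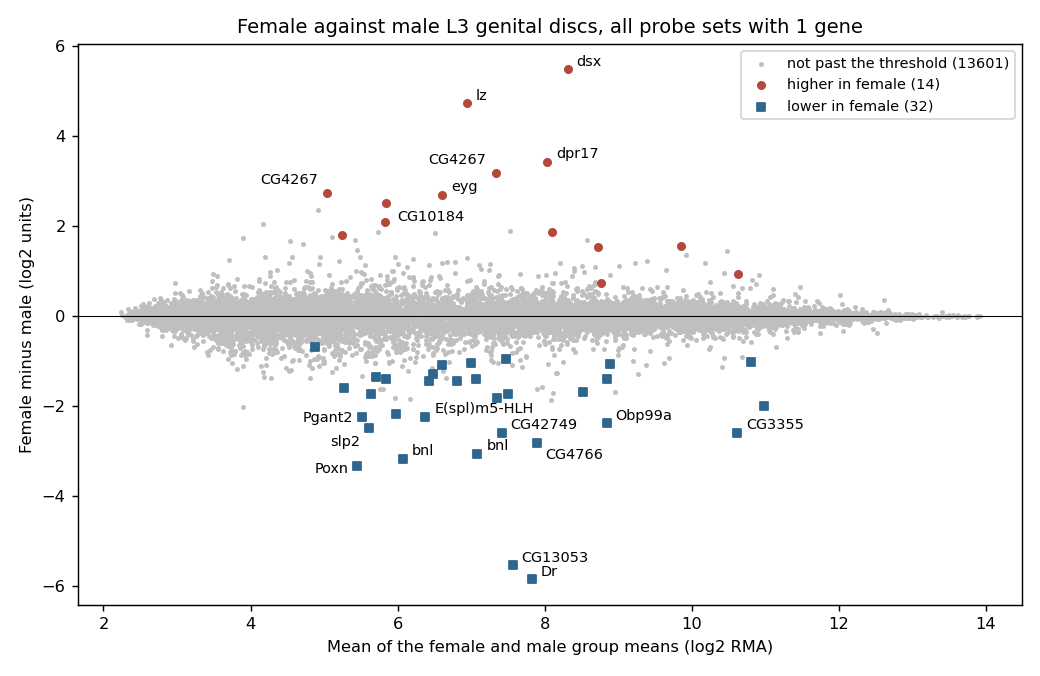
Female minus male difference (log2 units) of each of the 13647 probe sets against the mean of the 2 group means (log2 RMA). Grey points did not pass the threshold, red circles are the 14 probe sets higher in female discs and blue squares the 32 lower; dsx and lz lie highest, Dr and CG13053 lowest.

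The sex determination cascade gave the comparison its lowest adjusted p. Female discs read far higher than male discs on 1 dsx probe set, higher on tra, and lower on msl-2. The dsx probe set 1623776_s_at read 11.22, 11.12, 10.97 and 10.90 in female discs, against 5.80, 5.75, 5.14 and 5.60 in male discs. The arrays form 2 tight groups, with male readings not shown to be above background (5.48 ± 0.17, SE; adjusted p = 3.43e-06). Another dsx probe set, 1640799_at, leaned the opposite way, with 10.59, 10.34, 9.89 and 10.08 in female and 11.08, 11.33, 11.10 and 11.04 in male discs. Its groups did not overlap either, but the difference of -0.91 ± 0.17 missed the threshold (adjusted p = 0.0998), which it passed when all 24 arrays shared 1 estimate of the spread (adjusted p = 0.000694). That fit, called below the fit with all arrays, passed 118 probe sets (0.865%), which stand for 0.951% of all genes. It shares the spread of the later groups, which varied less than L3, so its p-values at L3 can be too small. A gene that passed only with all arrays is therefore not counted as called at L3. Since dsx transcripts differ between the sexes by splicing and not only in amount, the pair of probe sets cannot be read as 1 level, and which exons each probes was not analysed here.

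Upstream of dsx, tra read 10.98, 11.06, 11.10 and 11.23 in female discs and 10.43, 9.97, 10.22 and 10.05 in male discs. Every female value lay above every male value, by 0.92 ± 0.13 on average (adjusted p = 0.0295). The tra call was lost without any array but male replicate 1 (adjusted p up to 0.129) and held without both arrays numbered 1 (adjusted p = 0.0349). Sxl, the master switch, had 3 probe sets. On 1625620_a_at it read 5.97, 6.63, 7.60 and 6.47 in female discs and 4.74, 4.66, 4.97 and 4.84 in male discs. Here too the groups were apart, by 1.86 ± 0.30, and the difference came close to the threshold (adjusted p = 0.0593; 0.0105 with all arrays). The other 2 Sxl probe sets differed by -0.22 and -0.29 and their groups overlapped. The splicing partner gene tra2 (0.17) and the genes ix (-0.16), fl(2)d (-0.03) and vir (0.11) had an adjusted p of 1 each.

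Of 14 measured genes of the cascade, 2 were higher (dsx, tra) and 1 lower (dpn) in female discs, and their 24 probe sets had a median difference of -0.01, next to 0.01 over all probe sets. Over all genes 0.108% were higher and 0.259% lower. The lower gene, dpn, encodes a bHLH repressor that counts autosomes in the early embryo and keeps neural stem cells dividing. It read 6.44, 6.38, 6.80 and 5.88 in female discs, against 7.62, 7.76, 7.82 and 7.86 in male discs (-1.39 ± 0.19, adjusted p = 0.0220). The male arrays were tightly grouped and the female arrays all lay below them, although the call ended without female replicates 1 or 2 or male replicates 2, 3 or 4 (adjusted p up to 0.0978) and without both arrays numbered 1 (adjusted p = 0.117). For fru, the other sex-specifically spliced target of Transformer, 8 probe sets gave differences from -0.45 to 0.23, and none passed.

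Of the dosage compensation complex, which raises transcription of the single male X, msl-2 alone passed among 7 measured genes, against 0.367% of all genes. Its translation is repressed by Sex-lethal in females. It read 8.58, 8.37, 8.44 and 8.02 in female discs, against 9.53, 9.37, 9.39 and 9.37 in male discs (-1.06 ± 0.14, adjusted p = 0.0172). Male values lay within a narrow band, and female values all lay below it, but without female replicates 2 or 3 or any male array the call ended (adjusted p up to 0.0815), as it did without both arrays numbered 1 (adjusted p = 0.0536). The acetyltransferase gene mof (-0.53 ± 0.12, adjusted p = 0.213) was without overlap between the sexes and missed the threshold. Further values were -0.37 for msl-1, -0.40 and -0.33 for the 2 probe sets of msl-3, and -0.15 for the helicase gene mle. The 8 probe sets of the complex had a median of -0.36, with 7 of 8 below 0. Its listed genes roX1 and roX2 had no probe set of their own here.

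**Figure D3:**
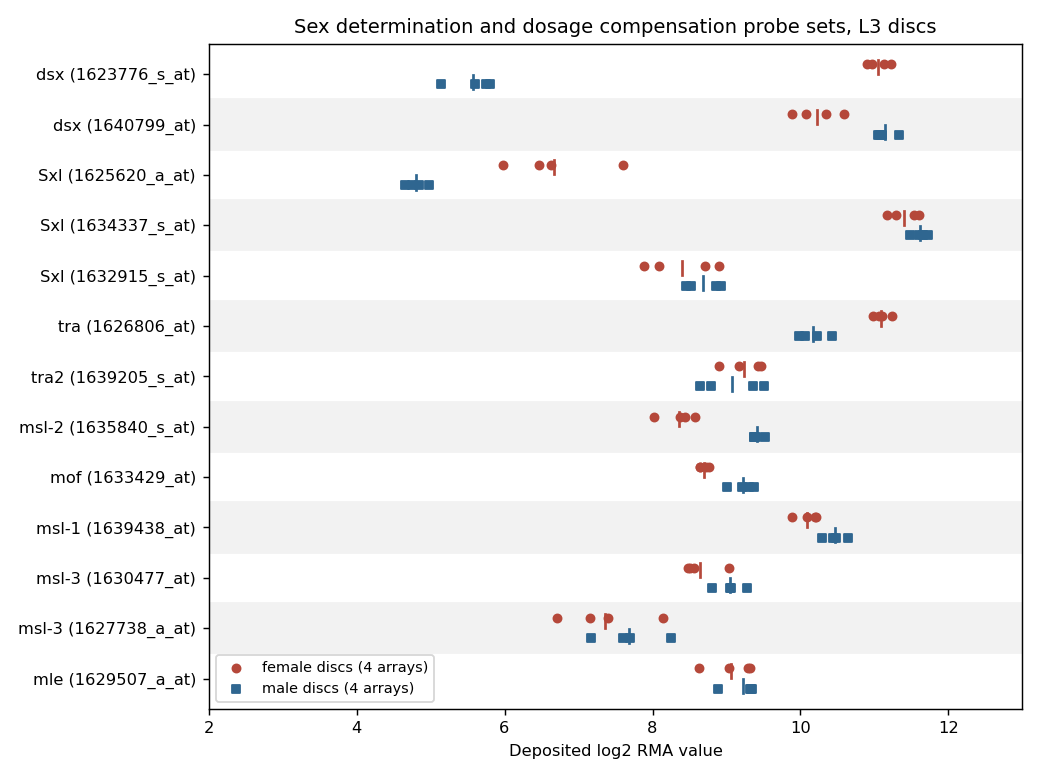
Deposited log2 RMA values of every probe set of the genes dsx, Sxl, tra, tra2, msl-2, mof, msl-1, msl-3 and mle on the 4 female (circles) and 4 male (squares) L3 arrays, with group means as vertical bars. The female and male arrays lie far apart on dsx 1623776_s_at, less so on Sxl 1625620_a_at, tra and msl-2, and overlap on tra2 and mle.

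Of the genes higher in female discs, lz, eyg, al and bab1 encode transcription factors of patterning. The Runx gene lz (lozenge), which is needed for the spermathecae, the sperm-storing organs, and acts in the eye and blood as well, read 9.26, 9.48, 9.30 and 9.18 in female discs, against 4.78, 3.97, 5.15 and 4.43 in male discs. Female arrays were close together and lay 4.72 ± 0.23 above the male mean (adjusted p = 7.33e-05), with male readings in the low range. The Pax-family gene eyg (eyegone), known from eye and salivary duct development, read 8.38, 8.14, 7.75 and 7.56 in female discs and 5.34, 5.38, 4.72 and 5.59 in male discs (2.70 ± 0.24, adjusted p = 0.00213). The homeobox gene al (aristaless), which patterns the tips of appendages, read 10.37, 10.74, 10.71 and 10.71 in female and 8.69, 9.30, 9.13 and 9.21 in male discs (1.55 ± 0.16, adjusted p = 0.00549). Both sexes thus gave high al readings, and the female group was 2.93-fold above the male one. bab1, a BTB-domain regulator of abdominal and gonadal development and a known Doublesex target in the abdomen, read 9.78, 9.16, 9.56 and 9.46 in female discs, against 7.77, 7.84, 8.13 and 8.08 in male discs (1.54 ± 0.16, adjusted p = 0.00526). Its neighbour bab2 leaned the same way without passing (0.92 ± 0.17, adjusted p = 0.106; 0.000582 with all arrays).

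The remaining female-higher genes encode surface, transport and cytoskeletal proteins or are known by number only. dpr17, of the Dpr family of immunoglobulin-domain receptors, read 10.11, 9.46, 10.02 and 9.42 in female discs, against 6.46, 6.10, 6.87 and 5.88 in male discs (3.43 ± 0.25, adjusted p = 0.000776). It was the single gene to pass among 29 measured dpr and DIP genes, against 0.367% of all genes. The 52 probe sets of this family had a median of 0.07. Drip, an aquaporin gene, read 7.31, 6.90, 6.39 and 6.89 in female and 5.14, 4.60, 4.81 and 4.62 in male discs (2.08 ± 0.21, adjusted p = 0.00463). SerT, the serotonin transporter gene, read 5.75, 6.29, 6.38 and 6.17 in female and 4.43, 3.97, 4.86 and 4.12 in male discs (1.80 ± 0.22, adjusted p = 0.0116). Both transport genes were without overlap, and the SerT call ended without female replicates 2 or 4 or male replicate 4 (adjusted p up to 0.0656). alphaTub85E, an alpha-tubulin gene of restricted expression, read 8.59, 8.99, 9.41 and 9.15 in female discs and 7.34, 7.09, 6.83 and 7.44 in male discs (1.86 ± 0.20, adjusted p = 0.00603). Its call ended with the replicate block (adjusted p = 0.0640). alpha-Man-IIb, a mannosidase gene of N-glycan processing, had the smallest difference of the female-higher genes (0.73 ± 0.12, adjusted p = 0.0496). That call was lost without any 1 of the 8 arrays (adjusted p up to 0.182) and without both arrays numbered 1 (adjusted p = 0.197), and it missed the threshold with all arrays (adjusted p = 0.0510).

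Both probe sets of the uncharacterised gene CG4267 passed, the one case among 10 called genes with several probe sets in which all did. 1624802_at read 6.34, 6.43, 6.86 and 6.01 in female discs and 3.91, 3.66, 3.76 and 3.37 in male discs (2.73 ± 0.20, adjusted p = 0.000776). 1631783_at read 9.12, 9.09, 8.57 and 8.90 in female discs and 6.70, 6.02, 4.25 and 6.00 in male discs (3.18 ± 0.46, adjusted p = 0.0315). The second varied more among male arrays, and its call was lost without any female array or male replicates 2 or 4 (adjusted p up to 0.134) and without both arrays numbered 1 (adjusted p = 0.0780). CG10184 read 7.24, 7.49, 6.69 and 6.95 in female discs, against 4.80, 3.96, 4.71 and 4.89 in male discs (2.51 ± 0.25, adjusted p = 0.00396). Its call ended with the replicate block (adjusted p = 0.0563). In 6 of the 10 genes a further probe set had a difference of opposite sign, namely dsx (above), Pgant2 (0.01), CG42342 (0.24), f (0.13), vvl (0.10) and wb (0.05), all of them below the threshold.

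**Figure D4:**
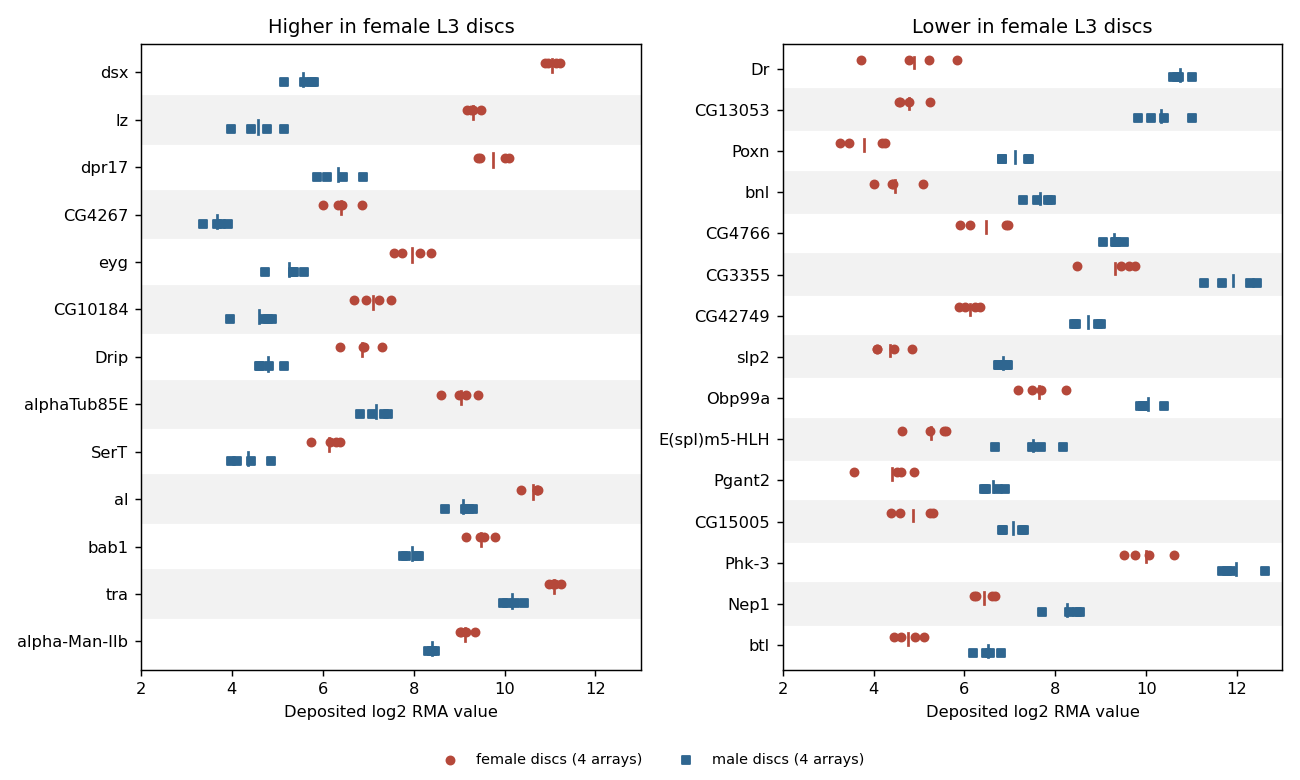
Deposited log2 RMA values of the 13 genes higher in female L3 discs (left) and of the 15 genes with the largest differences among those lower in female discs (right), 1 probe set each, on 4 female (circles) and 4 male (squares) arrays, with group means as vertical bars. For each gene the circles and squares do not overlap, and the widest gaps are those of dsx, lz, Dr and CG13053.

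On the other side, Dr (Drop), an Msx-family homeobox gene needed for male genital structures, was much lower in female discs. It read 5.84, 4.79, 5.22 and 3.73 in female discs, against 10.68, 11.00, 10.71 and 10.60 in male discs. Male arrays were close together, while female arrays scattered at low readings that were not shown to be above background (-5.85 ± 0.39, adjusted p = 0.000623). Poxn (pox neuro), a paired-domain gene required for chemosensory bristles and for the male genitalia, read 3.45, 4.20, 3.26 and 4.24 in female and 6.83, 7.42, 6.84 and 7.39 in male discs (-3.33 ± 0.27, adjusted p = 0.00109). slp2, a forkhead-domain gene of segmentation, read 4.08, 4.07, 4.46 and 4.85 in female and 6.74, 6.77, 6.97 and 6.94 in male discs (-2.49 ± 0.19, adjusted p = 0.000776). In both genes all female readings were at the low end of the arrays' range.

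Of the FGF genes, the ligand gene bnl and the receptor gene btl were lower in female discs. In male genital discs the FGF ligand Branchless draws mesodermal cells that carry the receptor Breathless into the epithelium, where they contribute to the male ducts and accessory glands. The ligand gene bnl read 4.43, 5.09, 4.01 and 4.40 in female discs, against 7.30, 7.91, 7.61 and 7.84 in male discs, on probe set 1637225_at (-3.18 ± 0.24, adjusted p = 0.000776). On 1627135_at the values were 5.22, 6.12, 5.22 and 5.65 in female and 8.53, 9.02, 8.23 and 8.68 in male discs (-3.06 ± 0.24, adjusted p = 0.00109). The 2 probe sets thus gave nearly the same difference, with female readings in the low range, whereas the third, 1634109_a_at, gave -0.25 with overlapping groups (adjusted p = 1). The receptor gene btl read 4.45, 5.10, 4.60 and 4.92 in female and 6.48, 6.56, 6.80 and 6.20 in male discs (-1.74 ± 0.19, adjusted p = 0.00552). The second FGF receptor gene, htl, which acts in mesoderm and muscle, leaned towards females: it read 8.36, 8.09, 8.33 and 8.47 in female discs and 7.85, 7.90, 7.87 and 7.75 in male discs (0.47 ± 0.12, adjusted p = 0.353; 0.0446 with all arrays). Its ligand genes ths (0.57, adjusted p = 0.358) and pyr (0.21) did not pass. In all, 0 of 6 measured FGF genes were higher and 2 lower in female discs by limma, with a median of -0.49 over 9 probe sets. Among all genes 0.108% were higher and 0.259% lower.

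Further called regulators belonged to families that divide appendages and body wall into territories. Of 6 measured Iroquois, spalt and sloppy-paired genes, 0 were higher and 3 lower in female discs, slp2, caup and salr, and the 7 probe sets had a median of -0.995. Over all genes 0.108% were higher and 0.259% lower. caup, an Iroquois homeobox gene, read 7.25, 6.49, 6.31 and 6.49 in female discs, against 8.60, 8.34, 8.24 and 8.27 in male discs (-1.73 ± 0.21, adjusted p = 0.0113). salr, a spalt-type zinc finger gene, read 6.92, 7.34, 6.83 and 6.89 in female and 7.95, 8.04, 7.76 and 8.07 in male discs (-0.96 ± 0.15, adjusted p = 0.0405). Their relatives salm (-1.0 ± 0.24, adjusted p = 0.304) and ara (-1.69, adjusted p = 0.570) had differences of like size and wider spread, and passed with all arrays (adjusted p = 0.00626 and 0.0252). The last Iroquois gene, mirr, leaned the opposite way on both its probe sets (0.59 and 0.46) without passing. The salr call ended without any array but female replicate 2 (adjusted p up to 0.172) and without both arrays numbered 1 (adjusted p = 0.214), and that of caup without female replicates 2 or 4 or male replicate 4 (adjusted p up to 0.0626).

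Of 6 LIM-homeobox genes, 1 was lower in female discs and 0 were higher, against 0.259% and 0.108% of all genes. The lower gene was ap (apterous), the dorsal selector gene of the wing. It read 8.48, 8.43, 7.83 and 7.87 in female and 9.78, 9.67, 9.25 and 9.50 in male discs (-1.40 ± 0.20, adjusted p = 0.0282), and its other probe set gave -0.98 (adjusted p = 0.0797). Awh, of the same family, lay on the other side, with 8.81, 9.28, 8.35 and 8.78 in female and 7.50, 7.63, 7.65 and 7.72 in male discs. Its groups were clearly apart, and the difference of 1.18 ± 0.19 fell just short of the threshold (adjusted p = 0.0507; 5.78e-05 with all arrays). On the other Awh probe set, 1624879_at, the sexes overlapped (0.08, adjusted p = 1). Among 8 T-box genes H15, a ventral-fate gene, was lower in female discs (6.48 ± 0.28 and 7.52 ± 0.12 in male discs; -1.04 ± 0.16, adjusted p = 0.0382), while bi, a Dpp target, missed the threshold (-0.63 ± 0.13, adjusted p = 0.168). Leaving out any array but female replicate 1 ended the calls of both ap (adjusted p up to 0.115) and H15 (adjusted p up to 0.157). Without both arrays numbered 1, ap did not pass (adjusted p = 0.0786) and H15 did (adjusted p = 0.0420).

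Other patterning families showed single genes or none past the threshold. Of 9 Pax genes, eyg was higher and Poxn lower in female discs, and of 7 Runx, BTB and Msx regulators, bab1 and lz were higher and Dr lower. Among all genes 0.108% were higher and 0.259% lower. Among 12 distal appendage and other homeobox genes al was higher and 0 were lower. Dll, the founder gene of distal limb fate, missed the threshold on each of 3 probe sets (-0.29, -0.59 and -0.73), the largest with 9.06, 8.87, 8.88 and 8.62 in female and 9.78, 9.72, 9.52 and 9.31 in male discs (adjusted p = 0.168). None of 5 genes of the eya, sine oculis and dac families passed (limma; 2 at an unadjusted p under 0.05), although eya, a phosphatase and transcriptional coactivator, was without overlap, with 6.56, 6.90, 7.13 and 6.79 in female and 7.46, 7.90, 8.11 and 8.10 in male discs (-1.05 ± 0.19, adjusted p = 0.0841). It passed with all arrays (adjusted p = 0.000554), and its partner dac did not with either fit (-0.34, adjusted p = 1). Among 4 measured Hox and segment identity genes 0 passed (limma, with 1 at an unadjusted p under 0.05, and 0 with all arrays). The listed genes abd-A, Abd-B, Ubx, exd and hth had no probe set of their own here, so the count does not cover them. Of all genes 4.57% had an unadjusted p under 0.05.

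Genes of the hindgut and anal primordium held no called member. None of 10 measured genes passed in limma, where 0.367% of all genes did, and 0 had an unadjusted p under 0.05, where 4.57% did. With all arrays 0 passed, where 0.951% of all genes did. At such shares most lists of 10 genes hold none, so these counts are not a result about this primordium. Their 11 probe sets ranged from -0.22 to 0.37 with a median of 0.15, and the sexes overlapped on each. Thus cad differed by -0.01, the T-box gene byn by 0.22, and the zinc finger gene drm by 0.32 (adjusted p = 1 for each).

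Signalling pathways outside FGF held few called members. In Notch signalling, E(spl)m5-HLH, a Notch-induced bHLH repressor, read 4.63, 5.60, 5.56 and 5.24 in female discs, against 6.67, 7.48, 7.68 and 8.18 in male discs (-2.24 ± 0.33, adjusted p = 0.0368). It was the single gene lower, and 0 were higher, of 17 measured, against 0.259% and 0.108% of all genes. Its neighbours in the complex, E(spl)m6-BFM (-1.85 ± 0.50, adjusted p = 0.460) and E(spl)m4-BFM (-0.87 ± 0.18, adjusted p = 0.168), were each without overlap and did not pass. The E(spl)m5-HLH call was lost without any array but male replicate 1 (adjusted p up to 0.142), and it held without both arrays numbered 1 (adjusted p = 0.0155). The ligand, receptor and transducer genes Dl, Ser, N and Su(H) had no probe set of their own here.

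In limma 0 of 17 Dpp, 0 of 13 Hedgehog, 0 of 12 EGF receptor, 0 of 5 Wnt and 0 of 7 JAK/STAT genes passed, where 4, 2, 4, 1 and 2 had an unadjusted p under 0.05. Over all genes 0.367% passed and 4.57% had such a p. With all arrays 3 Dpp genes passed, bi, salm and dpp itself, and 0 of the other pathways. Listed genes without a probe set of their own here included fz, arm and dsh of Wnt, and vn and rho of EGF receptor signalling. The BMP ligand gene dpp, transcribed along the compartment border, read 8.43, 8.81, 8.39 and 8.60 in female discs and 8.94, 9.21, 9.35 and 8.97 in male discs. The groups were apart by a small margin (-0.56 ± 0.15, adjusted p = 0.420; 0.0474 with all arrays). In the posterior compartment, en, the selector gene, read 9.54, 9.57, 9.73 and 9.78 in female discs, below the male discs, which averaged 10.02 ± 0.01. The male en values were nearly identical and the difference small (-0.36 ± 0.10, adjusted p = 0.577), and hh, its target and the pathway's ligand gene, overlapped (-0.29, adjusted p = 1). Wnt6, which lies beside wg in the genome, was higher on each female array, with 8.85, 9.24, 8.84 and 9.10 in female and 8.19, 8.46, 8.20 and 8.47 in male discs (0.68 ± 0.14, adjusted p = 0.168). For wg itself no probe set stood for that gene alone here.

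The median difference was -0.26 for the Dpp, -0.13 for the Hedgehog and -0.20 for the EGF receptor probe sets, with 16 of 20, 12 of 14 and 13 of 14 below 0. In the EGF receptor list, aos, a secreted inhibitor induced by the pathway, differed by -0.50 ± 0.15 (adjusted p = 0.628), 8.13 ± 0.23 in female and 8.62 ± 0.15 in male discs.

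Of 16 proneural and sensory precursor genes, Poxn was lower and 0 were higher in female discs, where 0.367% of all genes were called. The proneural gene ato (atonal) read 4.57, 5.96, 3.96 and 4.92 in female discs, above the 3.45, 3.31, 3.70 and 3.70 in male discs. The female values were widely scattered (1.31 ± 0.37, adjusted p = 0.534; 0.0149 with all arrays). The zinc finger gene sens, of the sensory organ precursor, leaned the opposite way, with 4.32, 4.62, 4.38 and 4.62 in female discs and 5.06, 6.16, 5.57 and 6.13 in male discs (-1.25 ± 0.25, adjusted p = 0.141; 0.00472 with all arrays). The achaete-scute genes ac (-0.19), sc (0.00) and ase (-0.39) had an adjusted p of 1 each, and l(1)sc, at low readings of 3.47 to 4.13 in female and 3.14 to 3.29 in male discs, gave 0.64 (adjusted p = 0.346).

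Growth, death, hormone and adhesion lists held no called gene at L3. In limma 0 of 20 cell cycle genes, 0 of 8 cell death genes, 0 of 19 ecdysone response genes and 0 of 22 adhesion and junction genes passed, and 1, 0, 1 and 6 had an unadjusted p under 0.05. Among all genes 0.367% passed and 4.57% had such a p. With all arrays the single one to pass was ImpL1, an ecdysone-induced gene (-0.74 ± 0.17; adjusted p = 0.282 in the L3 fit and 0.0150 with all arrays). The cell cycle probe sets ran from -0.12 to 0.37 with a median of 0.10, and 17 of 22 were above 0. Listed genes without a probe set of their own here included CycA, stg, E2f1 and Cdk1 of the cell cycle. They also included rpr, hid, Drice and Diap1 of cell death, Eip74EF and Eip75B of the ecdysone response, and Fas2 and Fas3 of adhesion. Among adhesion genes, the polarity gene scrib had -0.52 on 1 of 5 probe sets (adjusted p = 0.300) and the leucine-rich repeat gene trn 0.45 (adjusted p = 0.412). Of the listed heat shock and antimicrobial peptide genes, 4 of 15 and 6 of 14 were measured. They gave 0 calls in limma, 0 at an unadjusted p under 0.05 and 0 with all arrays.

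Secreted proteins, enzymes and numbered genes made up much of the rest of the genes lower in female discs. Obp99a, an odorant-binding protein gene, read 7.18, 7.48, 7.69 and 8.24 in female and 9.94, 10.39, 9.93 and 9.87 in male discs (-2.38 ± 0.23, adjusted p = 0.00366). It was the single gene to pass among 40 measured odorant-binding protein genes, against 0.367% of all genes. The 42 probe sets of this family had a median of -0.01. Phk-3 (pherokine 3), of the chemosensory protein family, read 10.62, 9.51, 10.07 and 9.76 in female and 12.61, 11.78, 11.68 and 11.86 in male discs (-1.99 ± 0.28, adjusted p = 0.0282). Replicate 1 was the highest array for Phk-3 in both sexes. The Phk-3 call held without both arrays numbered 1 (adjusted p = 0.0133), and it ended without female replicates 2, 3 or 4 or male replicates 2, 3 or 4 (adjusted p up to 0.129).

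Nep1, a neprilysin-type metallopeptidase gene, read 6.25, 6.68, 6.21 and 6.62 in female discs, against 7.71, 8.29, 8.49 and 8.55 in male discs (-1.82 ± 0.21, adjusted p = 0.00828). Pgant2, which encodes an enzyme that starts mucin-type O-glycans, read 4.60, 4.53, 4.89 and 3.57 in female and 6.43, 6.90, 6.74 and 6.48 in male discs (-2.24 ± 0.27, adjusted p = 0.0114). Its call was lost without female replicate 2 or male replicates 2, 3 or 4 (adjusted p up to 0.0594) and without both arrays numbered 1 (adjusted p = 0.0780), and on its other probe set, at 3.21 to 3.58 on all arrays, the sexes overlapped.

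Several numbered genes were lower in female discs. CG13053 read 4.59, 5.23, 4.56 and 4.78 in female discs, against 9.82, 10.40, 10.11 and 11.00 in male discs (-5.55 ± 0.26, adjusted p = 7.33e-05). Its female arrays lay near the low end of the range and its male arrays well above the middle. CG4766 read 6.91, 6.96, 5.91 and 6.12 in female and 9.51, 9.32, 9.04 and 9.33 in male discs (-2.82 ± 0.26, adjusted p = 0.00243). CG42749 read 6.02, 6.22, 5.88 and 6.34 in female and 8.46, 8.94, 8.42 and 9.01 in male discs (-2.59 ± 0.18, adjusted p = 0.000728), and a second probe set gave -1.03 (adjusted p = 0.168). CG3355 read 8.47, 9.61, 9.74 and 9.44 in female and 11.27, 12.28, 11.67 and 12.43 in male discs (-2.60 ± 0.34, adjusted p = 0.0186). Replicate 1 was the lowest array for CG3355 in both sexes, the difference passed without both arrays numbered 1 (adjusted p = 0.0133), and the call was lost when female replicate 2 or 4 or male replicate 2, 3 or 4 was left out (adjusted p up to 0.0792). CG15005 read 4.59, 5.23, 4.38 and 5.32 in female and 7.26, 7.31, 6.84 and 6.86 in male discs (-2.19 ± 0.24, adjusted p = 0.00603; 0.0737 without both arrays numbered 1).

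The last 10 genes lower in female discs complete the list. All but vvl, a called tracheal marker, are outside the naming rule and were chosen after their values were seen. In size order they were Ctr1B (-1.70), a copper transporter gene; spz5 (-1.61), a neurotrophin-family ligand gene; FucTC (-1.45), a fucosyltransferase gene; f (-1.44), the actin-bundling gene forked; CG42342 (-1.40); Trim9 (-1.35), a neuronal ubiquitin ligase gene; wb (-1.28), a laminin alpha chain gene; cysu (-1.09); CG3036 (-1.02); and the POU-domain gene vvl (-0.70). Adjusted p ran from 0.00243 for wb to 0.0466 for cysu. Calls of f, CG42342, wb and CG3036 held without any 1 array, though that of f ended with the replicate block (adjusted p = 0.0581). The others were lost without at least 1 array, Ctr1B without male replicates 3 or 4 (adjusted p up to 0.0610), FucTC without 5 of the 8 arrays (up to 0.0828), spz5 without 5 (up to 0.0978), Trim9 without 7 (up to 0.140) and cysu and vvl without any of the 8 (up to 0.175 and 0.151). Without both arrays numbered 1, calls also ended for FucTC, spz5, Trim9, cysu and vvl (adjusted p of 0.0754, 0.0548, 0.105, 0.178 and 0.164).

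Just inside the threshold lay alpha-Man-IIb (0.73, adjusted p = 0.0496) and cysu (-1.09, adjusted p = 0.0466). Just outside it were Awh (1.18, adjusted p = 0.0507), CG6739 (-1.02, adjusted p = 0.0579) and Sxl 1625620_a_at (1.86, adjusted p = 0.0593). Of larger differences named after their values were seen, TfAP-2, a transcription factor gene of leg and brain, missed the threshold at -1.86 (adjusted p = 0.0638), with 7.69, 7.46, 6.72 and 6.75 in female and 9.72, 9.03, 8.78 and 8.54 in male discs, and CG31816 missed it at 2.36 (adjusted p = 0.0734). Awh, Sxl, CG6739, TfAP-2 and CG31816 had no overlap between the sexes and passed with all arrays.

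Marker genes of other cell types were read for RNA of attached tissue. Of 7 fat body and 12 hemocyte markers 0 passed in limma (0 and 1 at an unadjusted p under 0.05, 0 with all arrays), but their summed level moved widely: 12.30 to 14.11 on female and 11.33 to 14.22 on male arrays for fat body, 12.69 to 14.15 and 12.67 to 13.88 for hemocytes. Replicate 2 was the lowest array of each sex in both lists, and replicate 3 the highest in hemocytes. Of 19 male germline markers, which would come with gonad tissue, 0 passed (2 at an unadjusted p under 0.05, 0 with all arrays), 14 averaged under 5 over the L3 arrays, and the sums were 9.52 to 9.94 on female and 9.43 to 11.03 on male arrays, with male replicate 2 the highest. Of 11 myoblast and mesoderm markers 0 passed in the L3 fit (2 at an unadjusted p under 0.05), htl passed with all arrays, and sums of 11.91 to 12.19 on female and 11.94 to 12.16 on male arrays overlapped. Glial, neuronal, salivary gland and female germline lists of 7, 7, 11 and 10 genes gave 0 calls in both fits, with 2, 1, 1 and 0 genes at an unadjusted p under 0.05. Of all genes 0.367% passed and 4.57% had an unadjusted p under 0.05 in the L3 fit.

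Tracheal cells share btl with the mesodermal cells of the male disc. Of 8 measured tracheal markers, btl and vvl were lower in female discs, and the sums overlapped, at 12.54 to 12.77 on female and 12.55 to 12.69 on male arrays. Over all genes 0.259% were lower. The tracheal nuclear receptor genes kni (0.90, adjusted p = 0.150) and knrl (0.61, adjusted p = 0.839) leaned towards females, and the matrix genes serp (0.04) and verm (0.09) differed little. The defining tracheal gene trh had no probe set of its own here. The part of any of these cell types in the sex differences was not tested.

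Called genes were spread over the chromosomes. On the X, of which females have a pair and males 1 copy, 1 probe set was higher (lz) and 5 were lower in female discs (CG42749, CG4766, f, FucTC and Nep1), 0.274% of 2188, against 0.355% of 11267 on the autosome arms. The median difference was 0.05 on the X and 0.01 on the autosome arms. Chromosome 2L had 3 higher and 9 lower probe sets, 2R had 2 and 4, 3L had 3 and 6, and 3R had 5 and 8.

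The sex difference at L3 was then set beside the same comparison at P6 and P20, which use other arrays. At P6, 445 probe sets (3.26%) passed, and 430 (3.15%) at P20, against 46 at L3, with a smaller spread between replicates. With the replicate number as a block, 557 passed at P20, of which 164 were higher in female discs, against 109 without it. The block left the counts of L3 calls that passed in the same direction at P20 as they were, at 10 higher and 20 lower. Higher in female discs were 148 (1.08%) at P6 and 109 (0.799%) at P20, and lower 297 (2.18%) and 321 (2.35%). Of the 14 probe sets higher in female L3 discs, 11 were also higher at P6, 10 at P20 and 8 at both stages. Of the 32 lower ones, 19 were lower at P6, 20 at P20 and 12 at both. The opposite was rarely seen, with vvl higher in female discs at P6 (1.10, adjusted p = 0.0355) and f at P20 (1.02, adjusted p = 0.0331, but 0.0621 with the replicate block). Seen from the later stages, 7.43% and 6.40% of the higher and lower calls at P6, and 9.17% and 6.23% of those at P20, had already passed at L3.

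The difference between stages was itself tested in a fit to all 24 arrays, in which 99 probe sets (0.725%) had an L3 sex difference unlike that at P6, and 100 (0.733%) one unlike that at P20. The count for P6 was 191 without male replicate 2 and 62 with 1 weight per stage. This fit does not pair arrays by replicate number. Since L3 arrays varied more than the later ones, each call below was repeated with a weight per stage. Calls that the weight ended are given with that p. Of the L3 calls, 3 of the higher and 9 of the lower probe sets differed from P6, and 4 and 11 from P20.

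Several genes of the larval comparison were called in the same direction at all 3 stages. The dsx probe set 1623776_s_at stayed higher in female discs by 4.67 at P6 and 4.82 at P20, tra by 0.66 and 0.80, eyg by 3.46 and 3.81, al by 2.11 and 1.74 and bab1 by 1.25 and 2.14. Poxn stayed lower in female discs by -3.21 and -4.24, caup by -1.89 and -1.66, msl-2 by -1.07 and -0.98 and salr by -0.93 and -1.02. For these probe sets no change of the sex difference between L3 and either later stage passed (adjusted p of 0.0575 or more, the lowest for dsx between L3 and P6). Dr was lower in female discs by -6.57 at P6 and -3.98 at P20 (adjusted p for a change of 1 and 0.326). For lz the difference was 5.12 at P6 and 7.15 at P20, a larger value at P20 than at L3 (L3 minus P20 -2.43, adjusted p = 0.0212, but 0.124 with a weight per stage and 0.0583 without male replicate 3).

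Other larval differences were smaller at P20. CG13053, so unequal at L3, differed by -3.34 at P6 and by -0.08 at P20 (L3 minus P20 -5.47 ± 0.28, adjusted p = 5.57e-11). Its P20 levels of 13.24 ± 0.13 in female and 13.32 ± 0.02 in male discs lay near the top of the arrays' range, and the female L3 level near its low end, so the size of that change is uncertain; compression of signal was not tested. The FGF pair followed the same order. The sex difference of bnl was -2.07 at P6 and -1.03 at P20 on 1637225_at, and -2.60 and -0.67 on 1627135_at, and that of btl -1.17 and 0.34. L3 and P20 differed by -2.15, -2.40 and -2.08 (adjusted p = 5.57e-05, 8.33e-05 and 3.94e-05), and at P20 the receptor gene was not called (adjusted p = 0.418). The basement membrane gene wb differed by -1.28 at L3, -1.49 at P6 and -0.08 at P20 (L3 minus P20 -1.20, adjusted p = 0.000435). For f the sign turned between L3 and P20 (L3 minus P20 -2.46, adjusted p = 1.2e-05).

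On the female side, CG10184 differed by 1.15 at P6 and 0.22 at P20, alphaTub85E by 1.59 and 0.01, and SerT by 1.56 and -0.98. Their sex difference at L3 exceeded that at P20 by 2.29, 1.85 and 2.78 (adjusted p = 0.000142, 0.000482 and 0.000112). The level of alphaTub85E averaged 9.04 ± 0.34 in female and 7.17 ± 0.27 in male L3 discs. All 3 were higher in female discs at L3 and P6. At P20 none passed (adjusted p of 0.816, 0.998 and 0.105), but with the replicate block SerT was lower in female discs (adjusted p = 0.0118).

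Other differences were smaller at P6 than at L3. Phk-3 differed by -1.99 at L3, -0.17 at P6 and -2.03 at P20, and its L3 difference was unlike that at P6 (-1.82 ± 0.30, adjusted p = 0.00268). At P6 it stood at 13.49 ± 0.10 in female and 13.66 ± 0.07 in male discs, near the top of the range, where compression of signal was not tested either. Pgant2 differed by -2.24 at L3, 0.19 at P6 and -0.64 at P20 (L3 minus P6 -2.43, adjusted p = 0.00184). On the female side, dpr17 differed by 3.43, 1.40 and 4.15 (L3 minus P6 2.02, adjusted p = 0.00874). CG3355 was called at L3 alone, with -0.29 at P6 and -0.47 at P20 (L3 minus those stages -2.31 and -2.13, adjusted p = 0.00409 and 0.00565). For CG42749 the P6 and P20 differences were -0.94 and -0.45. L3 minus P20 passed (-2.14, adjusted p = 0.00358), and L3 minus P6 passed only without the stage weights (adjusted p = 0.0426, and 0.142 with them).

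**Figure D5:**
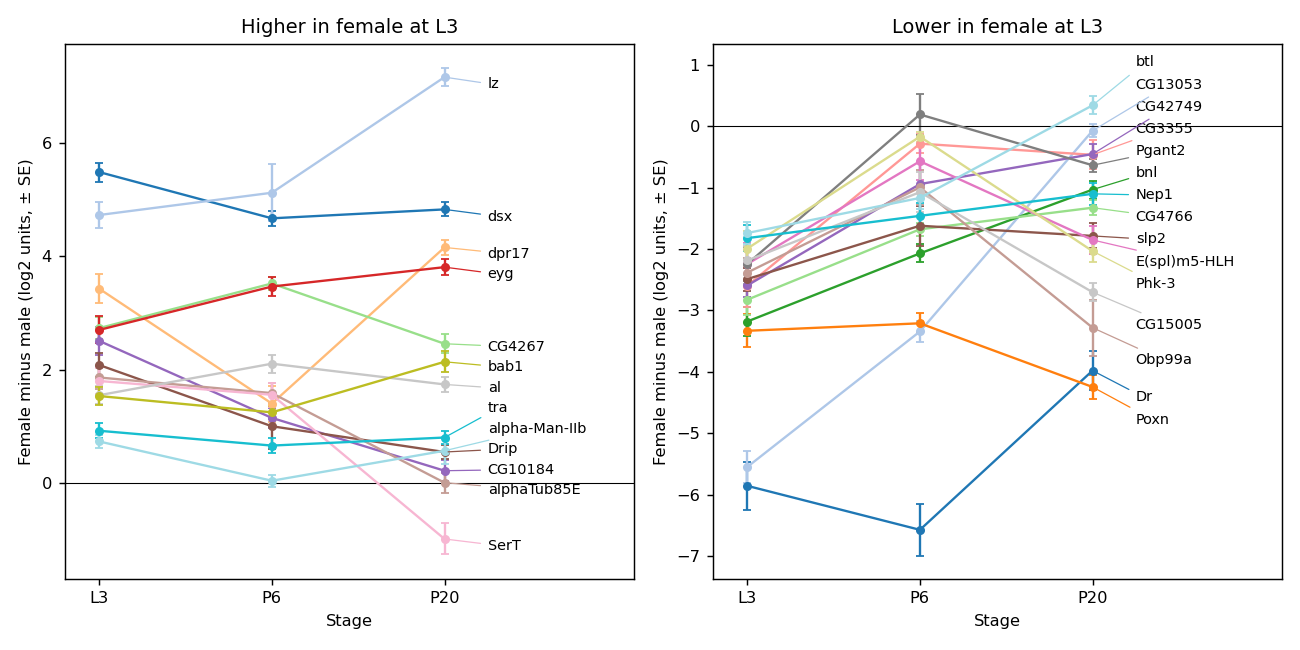
Female minus male difference (log2 units, ± SE from the fit of each stage) at L3, P6 and P20 for the 13 genes higher (left) and the 15 genes with the largest differences among those lower (right) in female L3 discs, 1 probe set each. The lines of dsx, eyg, al, bab1, tra and Poxn stay on 1 side, while CG13053, btl, alphaTub85E and CG10184 end near 0 at P20 and SerT ends below it.

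Some sex differences at P6 were larger than in the larva or of the other sign. For dac, the difference was -0.34 at L3 and -1.71 at P6 (L3 minus P6 1.37, adjusted p = 0.00750), and for eya -1.05 at L3 and -2.22 at P6 (1.17, adjusted p = 0.0121). The proneural gene l(1)sc differed by 0.64 at L3 and 3.06 at P6 (-2.42, adjusted p = 3.46e-05), at low larval readings in both sexes. For ato the values were 1.31 and 3.04 (-1.72, adjusted p = 0.0375; up to 0.0804 without any of 5 L3 arrays). CG4267 on 1631783_at was female-biased by 3.18 at L3 and 5.43 at P6 (-2.26, adjusted p = 0.0184), while its other probe set showed no called change. ss (spineless), which sets distal antennal and leg fate, differed by -0.76 at L3 and 0.77 at P6 (-1.54, adjusted p = 0.0233, but 0.0582 with stage weights). Among probe sets with a 2-fold or larger sex difference that passed at P6, 59 higher and 151 lower in female discs had not passed at L3, and at P20 59 and 179.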

How the data were processed

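RNA of dissected genital discs was hybridised to 24 Affymetrix arrays, 4 in each of 6 groups of sex and stage. The authors deposited 1 table of log2 values, normalised and summarised with RMA per the submitters' processing notes (version not named there). RMA makes the arrays' distributions alike, so differences are relative to the rest of each array. Array brightness and background are not in that table, and the number of arrays limits the precision. Groups came from the sample labels.

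Of 18952 probe sets, 183 controls, 402 with several genes and 4720 with none were left out, and 13544 of the other 13647 were matched to Release 6 of the genome annotation without a change of symbol. The L3 sexes were compared with limma 3.58.1 in R 4.3.3 (lmFit and eBayes on 8 arrays, no covariate, two-sided, Benjamini-Hochberg over all probe sets, threshold 0.05), and P6 and P20 likewise on their own 8 arrays. All adjusted p-values are limma's. The sex difference at L3 minus that at a later stage came from a fit to all 24 arrays. In simulated data the L3 fit called 11.9%, 49.3% and 92.4% of set changes of 0.5, 1 and 2 log2 units, with 8 false calls. The fit of L3 minus P6 called 8.96%, 49.3% and 90.9% of them, with 24 false calls. A probe set that did not pass is thus not shown to be equal between the sexes. The 24 false calls of the L3 minus P6 fit were a larger share of its calls than the threshold of 0.05 aims at. Adjusted p-values of changes between stages can thus be too small, and some called changes may be false. Noise in the simulated data was independent between arrays, so deviations shared by same-numbered arrays were not simulated. No low-value filter was set.

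The members and lists were chosen with earlier results of these data known. Genes were named by a rule: the 15 largest called differences in each direction without overlap, called members of 28 gene and 10 marker lists, up to 4 further members a list by unadjusted p (under 0.01), and a fixed panel of sex determination and disc genes. Genes named beyond it, to complete a family or list, were chosen after their values were seen. Alternatives were a fit to all arrays, array weights, 1 weight per stage, 1 probe set a gene, median centring, a trended robust prior, leaving out dim probe sets (mean under 5), the replicate number as a block, and leaving out each array. Leaving out both L3 arrays numbered 1 was added after seeing the data. Samples share replicate numbers, and deviations from the group means of same-numbered arrays correlated at 0.11, 0.41, 0.25 and 0.40 at P20, where the numbers were therefore taken to pair the arrays, but not in every pair over 0.1 at L3 or P6. No sequence of a gene or probe was used here.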

Additional observations from a re-analysis of the deposited data

Results flagged for a closer look

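Single arrays stood far from the other 3 of their group in 4 of 198 groups of 4 values, where the gap to the nearest value, as a share of the range, exceeded Dixon's critical value for 4 values; chance alone gives this in about 1 group in 20. The values were 10.37 for al in female replicate 1 (others 10.71 to 10.74), 10.39 for Obp99a in male replicate 2 (others 9.87 to 9.94), 9.53 for msl-2 in male replicate 1 (others 9.37 to 9.39) and 6.87 for fru 1638111_at in female replicate 2 (others 6.52 to 6.56). Of the 4, 2 were arrays numbered 1.

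The other results given here are sex differences at L3 that were unlike those of a later stage by the test of the difference itself in limma, fitted to all 24 arrays. Values are the female minus male difference at L3 minus that at the later stage, in log2 units. Against P6, the value was above 0 for dpr17 (2.02, adjusted p = 0.00874), CG10184 (1.36, adjusted p = 0.0406), dac (1.37, adjusted p = 0.00750) and eya (1.17, adjusted p = 0.0121). dpr17 and CG10184 had the larger female excess at L3, whereas dac and eya had the larger male excess at P6. Genes with a value below 0 and a larger male excess at L3 were Pgant2 (-2.43, adjusted p = 0.00184), CG3355 (-2.31, adjusted p = 0.00409), CG13053 (-2.20, adjusted p = 0.000150), Phk-3 (-1.82, adjusted p = 0.00268), CG42749 (-1.65, adjusted p = 0.0426), cysu (-1.38, adjusted p = 0.000757), CG42342 (-1.30, adjusted p = 0.0174) and CG4766 (-1.15, adjusted p = 0.0364). A larger female excess at P6 gave -2.42 for l(1)sc (adjusted p = 3.46e-05), -2.26 for CG4267 1631783_at (adjusted p = 0.0184) and -1.72 for ato (adjusted p = 0.0375). The sign turned between the stages for vvl (-1.80, adjusted p = 0.000705) and ss (-1.54, adjusted p = 0.0233).

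Against P20, SerT (2.78, adjusted p = 0.000112), CG10184 (2.29, adjusted p = 0.000142) and alphaTub85E (1.85, adjusted p = 0.000482) had the larger female excess at L3. A larger male excess at L3 was found for CG13053 (-5.47, adjusted p = 5.57e-11), bnl 1627135_at (-2.40, adjusted p = 8.33e-05), bnl 1637225_at (-2.15, adjusted p = 5.57e-05), CG42749 (-2.14, adjusted p = 0.00358), CG3355 (-2.13, adjusted p = 0.00565), CG4766 (-1.50, adjusted p = 0.00225), wb (-1.20, adjusted p = 0.000435), CG42342 (-1.19, adjusted p = 0.0316) and CG3036 (-0.89, adjusted p = 0.0481). The sign differed between the stages for f (-2.46, adjusted p = 1.2e-05), E(spl)m6-BFM (-2.30, adjusted p = 0.0367), btl (-2.08, adjusted p = 3.94e-05) and fru 1631498_a_at (-1.63, adjusted p = 0.0479). For lz the female excess was larger at P20 (-2.43, adjusted p = 0.0212).

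With 1 weight per stage these calls were lost for CG10184 (adjusted p = 0.0724), ss (0.0582), CG42749 (0.142) and CG42342 (0.0502) against P6, and for lz (0.124), fru (0.181), CG3036 (0.153) and CG42342 (0.110) against P20. Leaving out 1 of the 8 L3 arrays ended the call against P6 for CG10184, ato and CG4766 (adjusted p up to 0.0948, 0.0804 and 0.0870), for CG42749 without any but male replicate 1 (up to 0.0929) and for ss without replicate 3 of either sex (up to 0.0604). Against P20 it did so for E(spl)m6-BFM and CG42342 (up to 0.0914 and 0.0809), for CG3036 and fru without 7 of the 8 arrays (up to 0.106 and 0.114), and for lz without male replicate 3 (0.0583).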

How the results depend on the processing

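No call at L3 turned its direction under any alternative, and 26 of the 46 called probe sets stayed called without any 1 array. The number called ranged from 27 to 44 when 1 L3 array was left out, with 10 to 17 higher and 17 to 30 lower in female discs, and the count of L3 sex differences unlike those at P6 ranged from 71 to 191 and at P20 from 87 to 105. Fitted to all arrays, 118 probe sets passed at L3 (44 higher, 74 lower; 44 of the 46 shared, without vvl at an adjusted p of 0.0914 and alpha-Man-IIb at 0.0510), and 457 were lower in female discs at P6 and 211 at P20. Array weights gave 60, of which 22 were higher and all 46 shared. Other settings gave 44 (1 probe set a gene), 46 (median centring), 41 (trended robust prior) and 51 (dim probe sets left out). With 1 weight per stage, 62 probe sets differed from P6. The replicate numbers were not taken to pair the L3 arrays, since 1 of the 4 pairs was under 0.1 (deviations of same-numbered arrays correlated at 0.69, 0.36, 0.32 and 0.08). The replicate block gave 44 calls there, 34 of them shared, without 12 others, namely CG10184 and salr (adjusted p = 0.0563 each), f (0.0581), alphaTub85E (0.0640), FucTC (0.0652), H15 and vvl (0.0682 each), dpn (0.0690), alpha-Man-IIb (0.0795), Trim9 (0.0800), tra (0.0918) and cysu (0.163). At P20 it gave 164 higher; of the genes named, SerT (0.0118) and dpn (0.0163) passed there with it, and f (0.0621) and cysu (0.0506) did not. Probe sets near 0 that never passed changed sign when 1 array was left out, over -0.10 to 0.25 (fru 1632859_a_at), -0.11 to 0.077 (fru 1638111_at), -0.028 to 0.073 (fru 1634379_a_at), -0.038 to 0.18 (Awh 1624879_at), -0.051 to 0.088 (Pgant2 1639881_at), -0.35 to 0.20 (scrib 1633904_at), -0.17 to 0.25 (Yp1) and -0.052 to 0.029 (cad). The cause of these changes was not tested. The wide spread of low readings, without detection calls, limits what can be said of them.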
